A study of Mus musculus with 61 samples.

Results

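The genes described here are those of mitochondrial complex I whose symbol starts with Nduf. They were taken by name: every probe set of the array whose platform annotation gave a single gene symbol starting with Nduf, and for a gene with several such probe sets the one with the highest mean over the 61 arrays. That gave 44 genes of 18194 with a single-symbol probe set. The arrays measured RNA of lacrimal glands and of salivary glands from males of the NOD strain, which serves as a model of Sjögren's syndrome. By the paper's account, males of this strain develop leukocyte infiltrates in the lacrimal glands and rarely have salivary gland disease. The study asked how soluble lymphotoxin-beta receptor, which blocks signalling through that receptor, changed gene expression in the glands. In each gland the groups were LTBR-Ig (the receptor fused to a mouse IgG1 Fc, called mLTBR-mIgG1 in the labels) at weeks 12 and 16, MOPC-21 (a mouse IgG1 control antibody) at weeks 12 and 16, and untreated mice at weeks 8, 12, 14 and 16. The injections were weekly and began at week 8, so week 12 followed 4 weeks and week 16 followed 8 weeks of treatment. Every group held 4 arrays of separate mice, except LTBR-Ig salivary glands at week 12 (2 arrays) and untreated lacrimal glands at week 12 (3 arrays). Each array was made from whole glands: both lacrimal glands of a mouse combined, or the submandibular, sublingual and parotid glands combined. All mice carried the NOD background, and no other strain was among the arrays.

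Complex I, NADH dehydrogenase, takes electrons from NADH, passes them to ubiquinone and pumps protons across the inner mitochondrial membrane. Its matrix arm holds the N module, which binds and oxidises NADH, and the Q module, where ubiquinone is reduced, while its membrane arm has a proximal part next to the Q module and a distal part. Most subunits are encoded in the nucleus and a few in mitochondrial DNA, and dedicated assembly factors, several of them named Ndufaf, help to build the complex without staying in it. Secretory acinar and duct cells use the ATP that follows from this proton gradient for ion transport and protein secretion. Of the 44 genes, 9 belonged to the N module, 5 to the Q module, 8 to the proximal membrane arm, 12 to the distal membrane arm and 8 to the assembly factors. The other 2 have Nduf names but a place outside complex I, Ndufa4 being known as a subunit of complex IV and Ndufa4l2 as its paralog. Ndufs6 and Ndufa11 had no single-symbol probe set and were not analysed here.

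Values are on the log2 scale of the deposited GCRMA expression values, and a difference of 1 is a 2-fold difference. A gene was tested where its value exceeded log2 4 on at least 2 arrays of at least 1 group, and it passed where limma's adjusted p was under 0.05. In each fit 41 of the 44 genes were tested. These 41, called complex I genes below, include Ndufa4 and the assembly factors. The other 3 were Ndufa4l2, at 1.67 to 2.14 over the 61 arrays, and the distal arm genes Ndufb4, at 2.17 to 2.71, and Ndufb1, at 3.18 to 3.94. Of the 44 chosen probe sets, 10 carried a suffix for probes that can bind other transcripts: Ndufa13, Ndufa2, Ndufab1, Ndufaf7 and Ndufc2 for probes shared between genes, and Ndufa12, Ndufa3, Ndufa7, Ndufb11 and Ndufv1 for probes that may cross-bind. Between 37.3% and 41.4% of all probe sets exceeded log2 4 on an array. A salivary MOPC-21 week 12 array (replicate 2) stood apart by its Gapdh probe sets, whose 3′ minus 5′ value was 3.90, against -0.98 to -0.08 on the other salivary arrays and -0.80 to -0.04 on lacrimal arrays. A salivary untreated week 8 array (replicate 1) had a mean of 12.21 for the lacrimal acinar markers, against 6.19 to 7.55 on the other salivary arrays. Amy1, which encodes salivary amylase, exceeded log2 8 on 8 lacrimal arrays, among them untreated week 16 replicates 1 and 2 (14.39 and 15.31) and LTBR-Ig week 16 replicates 3 and 4 (15.08 and 12.22), and was 3.38 to 3.84 on the MOPC-21 arrays of week 16. The lacrimal array with the highest mean of submandibular and sublingual markers, 12.47, was LTBR-Ig week 12 replicate 1. Some results are given with and without these arrays.

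Complex I genes were lower in lacrimal than in salivary glands. Averaged over the 41 tested genes, each lacrimal array lay between 8.62 and 9.11 (median 8.85) and each salivary array between 9.19 and 9.72 (median 9.43), so that no lacrimal array reached a salivary one. Lacrimal glands were lower in every pair of matched groups: by 0.59 with LTBR-Ig at week 12 (8.85 ± 0.10, n = 4, against 9.44 ± 0.02, n = 2), by 0.60 with LTBR-Ig at week 16 (8.83 ± 0.02 against 9.43 ± 0.05), by 0.45 with MOPC-21 at week 12 (8.88 ± 0.06 against 9.33 ± 0.11) and by 0.64 with MOPC-21 at week 16 (8.76 ± 0.12 against 9.41 ± 0.01; SD, n = 4 each). Among untreated mice the lacrimal and salivary means were 9.10 ± 0.01 and 9.59 ± 0.09 at week 8, 8.88 ± 0.06 (n = 3) and 9.42 ± 0.04 at week 12, 8.83 ± 0.02 and 9.46 ± 0.03 at week 14, and 8.80 ± 0.04 and 9.40 ± 0.03 at week 16. The sign was the same for most genes one by one, 33 of 41 being lower in lacrimal glands in all 8 pairs of groups and 1, Ndufaf8, being higher in all of them. For 14 of 41 genes every lacrimal array was below every salivary array, and for 0 every lacrimal array was above, while over all probe sets tested this held for 6.61% and 2.97%. These 14 were Ndufa12, Ndufa6, Ndufa7, Ndufs4 and Ndufv3 of the N module, Ndufa5 and Ndufs3 of the Q module, Ndufa1 and Ndufa13 of the proximal arm, and Ndufab1, Ndufb10, Ndufb2, Ndufb8 and Ndufb9 of the distal arm. Salivary MOPC-21 week 12 replicate 2 alone kept Ndufs8, Ndufv2, Ndufa8 and Ndufaf2 out of this count. Its values of 9.56, 10.49, 9.41 and 6.20 lay below the highest lacrimal values of 10.72, 10.63, 9.53 and 6.36. The lowest salivary mean, 9.19, was also on that array. In whole glands, fewer cells of a type that is rich in these transcripts and less of the RNA per cell cannot be told apart.

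**Figure D1:**
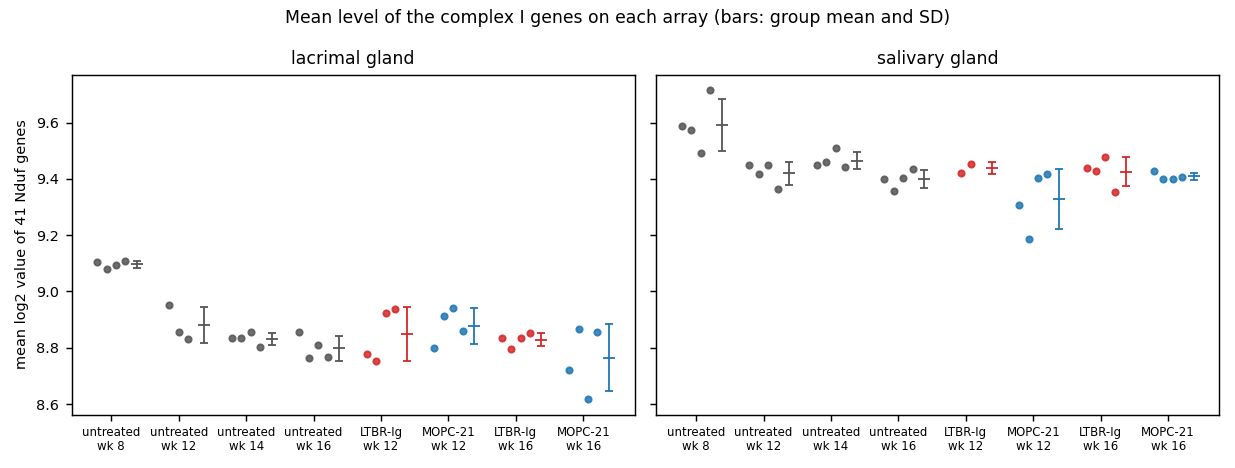
Mean log2 GCRMA value of the 41 tested complex I genes on each of the 61 arrays (1 point per array), lacrimal glands in the left panel and salivary glands in the right, by treatment and week, with the group mean and SD as bars. Lacrimal arrays sit between 8.62 and 9.11 and salivary arrays between 9.19 and 9.72, and the highest lacrimal group is untreated week 8.

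At week 8, when the mean of the B-cell markers was 2.86 to 3.70 per array in lacrimal and 2.62 to 3.97 in salivary glands of untreated mice, 30 of 41 complex I genes passed as lower in lacrimal glands and 3 as higher (median difference -0.58). Over all probe sets tested, 28.8% passed as lower and 24.9% as higher, with a median of -0.03. At week 16, 34 passed as lower and 1 as higher (median -0.66), while 27.5% of all probe sets passed as lower and 29.1% as higher (median 0.02). A difference of at least 2-fold was less frequent: 3 complex I genes at week 8 and 5 at week 16 passed with such a decrease, beside 11.6% and 11.4% of all probe sets. By module, 7 of 9 N module genes, 4 of 5 Q module genes, 6 of 8 proximal arm genes and 9 of 10 tested distal arm genes were lower at week 8, with median differences of -0.58, -0.52, -0.54 and -0.73. Of the 8 assembly factors 3 were lower and 1 higher (median -0.07). At week 16 the counts of lower genes were 8 of 9, 5 of 5, 5 of 8 and 10 of 10 in the 4 modules and 5 of 8 among assembly factors, 1 assembly factor being higher. Without the salivary week 8 array that carried lacrimal markers, 30 complex I genes passed as lower and 1 as higher at week 8. Without the arrays on which Amy1 exceeded log2 8, 30 passed as lower and 2 as higher at week 8, and 29 as lower and 1 as higher at week 16.

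Ndufa5, an accessory subunit of the Q module, had the largest difference at week 8. Its values were 9.21, 9.19, 9.36 and 9.14 in lacrimal glands, against 10.77, 11.00, 10.70 and 11.02 in salivary glands. The groups were more than 1 log2 unit apart with no overlap, and the lacrimal level was lower by 1.65 (SE 0.09, a 3.14-fold decrease, limma adjusted p = 1.64e-22). At week 16 its lacrimal values of 9.31, 9.38, 9.29 and 9.38 again lay below the salivary values of 10.52, 10.47, 10.53 and 10.48, and the difference was -1.16 (adjusted p = 9.34e-17). A second Ndufa5 probe set also differed, by -1.25 at week 8. The gene lies on the minus strand at chr6:24518662-24527690 of mouse build GRCm38.p6.

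Several genes of the distal arm also differed. Ndufb10, an accessory subunit there, was at 8.90, 8.69, 9.03 and 9.05 in lacrimal glands, against 10.02, 9.86, 9.75 and 10.07 in salivary glands at week 8 (95% interval of the difference -1.18 to -0.83, adjusted p = 4.14e-14), and it kept the distance at week 16 (-1.02). Ndufab1, the mitochondrial acyl carrier protein, which also serves fatty acid synthesis, was at 8.80, 8.69, 8.43 and 8.70 in lacrimal glands, against 9.93, 9.89, 10.02 and 9.84 in salivary glands at week 16 (-1.27, SE 0.12, adjusted p = 1.19e-13). Neither gene's lacrimal and salivary values overlapped at either week. Ndufb2 and Ndufb9, 2 more accessory subunits of this arm, differed at week 16 by -1.22 (adjusted p = 4.59e-14) and -1.15 (adjusted p = 1.15e-13), both without overlap. Ndufb3, a small distal subunit, behaved otherwise: its values of 9.57, 9.42, 9.51 and 9.55 in lacrimal glands at week 8 overlapped in part with the salivary values of 9.57, 9.61, 9.62 and 9.52 (-0.07, adjusted p = 0.542), and at week 16 it was lower in lacrimal glands by 0.57.

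Of the core subunits, which carry the redox centres and the ubiquinone site, all but 1 of those tested were lower in lacrimal glands at week 8. Ndufv1, which binds the flavin that takes electrons from NADH, averaged 9.75 ± 0.13 in lacrimal and 10.34 ± 0.16 in salivary glands at week 8 (SD, n = 4 each; -0.58, SE 0.11, adjusted p = 1.12e-05). The other core subunits, Ndufv2 with -0.52, Ndufs3 with -0.52, Ndufs7 with -0.47 and Ndufs8 with -0.86, were also lower. Ndufs1, the large iron-sulfur protein of the N module, did not pass then. It averaged 8.78 ± 0.17 in lacrimal and 8.92 ± 0.24 in salivary glands at week 8, with overlapping values (-0.13, adjusted p = 0.284), whereas at week 16 it was 8.24 ± 0.11 in lacrimal and 9.14 ± 0.12 in salivary glands (-0.89, adjusted p = 1.67e-10). Among the other genes with larger decreases at week 8 were Ndufa12 (-0.89) of the N module and Ndufa13 (-0.83) of the proximal arm. Ndufa4, the complex IV subunit with a complex I name, was lower by 0.30 (adjusted p = 0.00363).

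Assembly factors differed in both directions between the glands. Ndufaf8, which is known to work with the hydroxylase Ndufaf5, was at 8.57, 8.49, 8.48 and 8.62 in lacrimal glands and at 8.07, 8.08, 7.84 and 8.09 in salivary glands at week 8. All lacrimal values were above all salivary ones, by 0.52 (SE 0.10, adjusted p = 1.93e-05), and at week 16 the difference was 0.48 (adjusted p = 5.86e-05). Ndufaf5 itself, low on these arrays, averaged 3.87 ± 0.40 in lacrimal and 5.16 ± 0.54 in salivary glands at week 8 (-1.29, SE 0.22, adjusted p = 1.92e-06), with overlapping values. Ndufaf2, a late-acting factor, was lower in lacrimal glands by 0.77 at week 8 and 0.76 at week 16. Ndufaf1, which works in the membrane arm with Ecsit and Acad9, did not pass at week 8 (0.07, adjusted p = 0.609) and was lower by 0.52 at week 16. Ndufaf4 depended on the probe set: the one used here differed by -0.03 at week 8 and the gene's other probe set by -0.91. Of 8 assembly genes without an Nduf name, 1 was lower (Foxred1, -0.53) and 3 were higher in lacrimal glands at week 8 (Acad9, 0.44, Tmem186, 0.85, and Lyrm2, 0.60). The remaining genes that passed as higher, Ndufa2 and Ndufa9, did so by 0.22 each with overlapping values. Without the salivary week 8 array that carried lacrimal markers neither passed (0.18, adjusted p = 0.0682 for Ndufa2, and 0.21, adjusted p = 0.087 for Ndufa9). Ndufa9 was lower in lacrimal glands at week 16 (-0.25, adjusted p = 0.021).

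**Figure D2:**
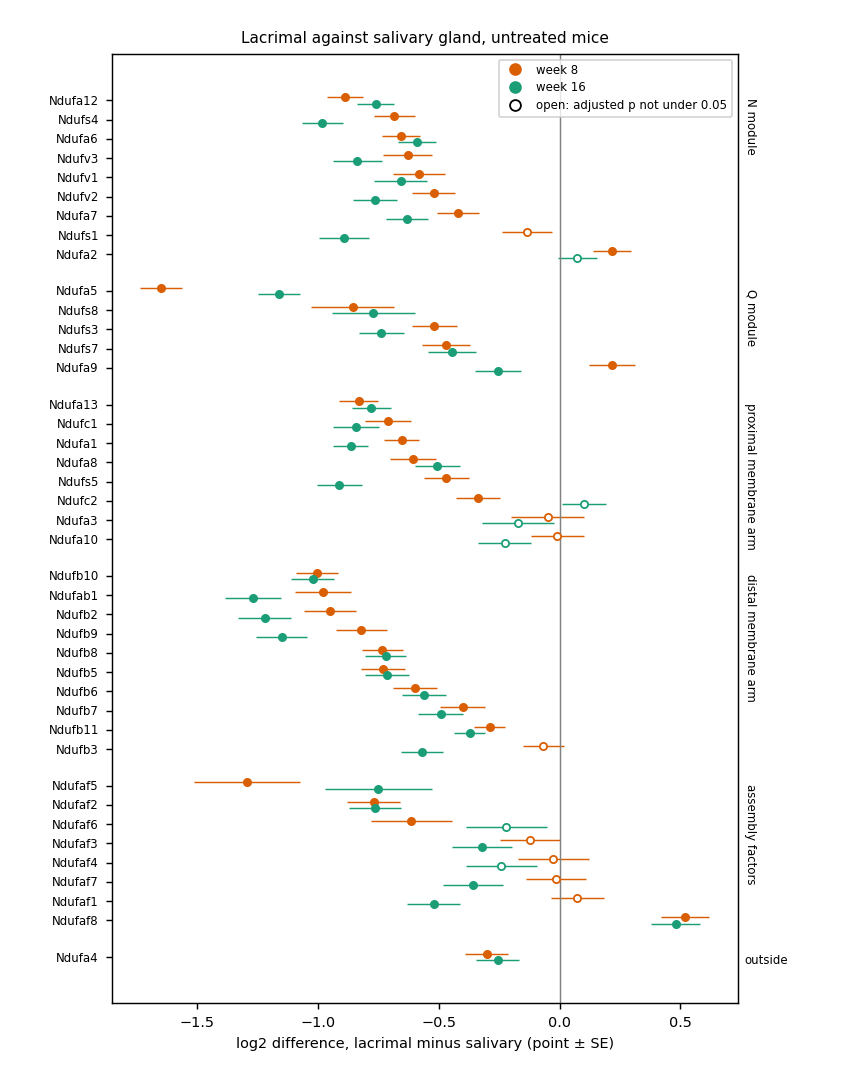
Log2 difference between lacrimal and salivary glands of untreated mice for each tested complex I gene, grouped by module, at week 8 (orange) and week 16 (green), with its standard error. Filled points passed at adjusted p under 0.05 and open points did not. The difference runs along the horizontal axis: most points lie left of 0 at both weeks, with Ndufa5 at -1.65 at week 8 and Ndufab1 at -1.27 at week 16 farthest left, and Ndufaf8 lies right of 0 at both.

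Most other respiratory chain genes were also lower in lacrimal glands. At week 8, 4 of 6 complex II genes were lower in lacrimal glands and 1 was higher, 8 of 10 complex III genes were lower, 9 of 10 complex IV genes were lower and 1 higher, and 14 of 15 complex V genes were lower, with medians of -0.62, -0.52, -0.90 and -0.59. The complex I gene of mitochondrial DNA that was measured, ND5, was lower by 0.44 (adjusted p = 0.025). Glycolysis genes, 10 of 11 lower (median -1.21), had a lower median than complex I. Among regulators of mitochondrial genes, the coactivator gene Ppargc1a averaged 3.58 in lacrimal and 7.63 in salivary glands at week 8, a difference of -4.05 in which the lacrimal value lies under log2 4, near the background of the array, and the nuclear receptor gene Esrra differed by -1.16. Macrophage and dendritic cell markers were also lower in lacrimal glands at week 8, in 5 of 6 cases (median -1.64), while B-cell and T-cell markers passed in 0 of 11. At week 16, 5 of 5 B-cell and 6 of 6 T-cell markers were higher in lacrimal glands (medians 6.42 and 3.39). The part of these cells in the week 16 differences of complex I genes was not tested.

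Promoters of complex I genes were searched for 3 short sequences known as binding motifs of regulators of nuclear genes for mitochondria, because members of the group moved together between glands. Of the 44 genes, 39 had a promoter window (250 bases before to 50 bases after the start) in the RefSeq table of build GRCm38.p6. The NRF1 motif, GCGCA and GCGC with any base between them, was found on either strand in 7 of these genes and in 19.5% of their windows, beside 4.6% of all promoter windows. The YY1 motif ATGGCGG was found in 9 genes and 24.4% of windows, beside 4.05% of all, and the ETS motif CCGGAAG of the GABP family in 6 genes and 14.6% of windows, beside 8.86% of all. A match is a run of letters and not a measured binding site. The 120 bases before the start are printed for 6 genes that the results turn on, with the motif in capitals: the NRF1 motif in Ndufa5 at chr6:24527691-24527810 (minus strand), Ndufs5 at chr4:123718187-123718306 (minus strand) and Ndufaf4 at chr4:24897963-24898082 (plus strand), the ETS motif in Ndufaf1 at chr2:119662835-119662954 (minus strand) and Ndufaf8 at chr11:120098814-120098933 (plus strand), and no motif in Ndufb3 at chr1:58586277-58586396 (plus strand). Each is read 5′ to 3′ on the gene's strand. Ndufa5 has 2 annotated starts, and the outer one is shown.
Ndufa5: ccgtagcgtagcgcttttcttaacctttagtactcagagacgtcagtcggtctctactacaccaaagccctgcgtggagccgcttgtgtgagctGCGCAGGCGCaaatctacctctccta
Ndufs5: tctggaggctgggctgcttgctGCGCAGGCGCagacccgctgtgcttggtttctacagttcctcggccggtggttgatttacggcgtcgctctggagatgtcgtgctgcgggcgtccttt
Ndufaf4: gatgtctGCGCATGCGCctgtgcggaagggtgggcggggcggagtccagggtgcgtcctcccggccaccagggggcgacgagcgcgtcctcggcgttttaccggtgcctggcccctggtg
Ndufaf1: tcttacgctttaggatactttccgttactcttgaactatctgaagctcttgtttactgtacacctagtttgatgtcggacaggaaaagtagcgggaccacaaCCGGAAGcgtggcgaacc
Ndufaf8: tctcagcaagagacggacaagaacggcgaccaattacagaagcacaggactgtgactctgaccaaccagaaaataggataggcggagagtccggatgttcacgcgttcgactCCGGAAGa
Ndufb3: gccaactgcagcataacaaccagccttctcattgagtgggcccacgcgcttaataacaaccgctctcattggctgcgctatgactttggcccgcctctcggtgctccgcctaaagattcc
In Ndufa5 the NRF1 motif lay at -26 to -17, counted from the start of the gene, in Ndufs5 at -98 to -89 and in Ndufaf4 at -113 to -104. The ETS motif lay at -18 to -12 in Ndufaf1 and at -8 to -2 in Ndufaf8. Of the printed genes with the ETS motif, Ndufaf8 was higher in lacrimal glands at week 8 and Ndufaf1 had no difference that passed. The other genes with this motif were Ndufb6, Ndufb7, Ndufs3 and Ndufs8, and a link between motif and difference was not tested.

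With age, complex I genes fell in untreated lacrimal glands. At week 16 against week 8, 25 of 41 passed as lower and 1 as higher (median -0.30), beside 29.6% of all probe sets as lower and 23.9% as higher (median -0.07), and 37 of the 41 had a negative sign. The fall was spread over the membrane arm, where 6 of 8 proximal and 9 of 10 distal arm genes were lower, and over 5 of 9 genes of the N module, 2 of 5 of the Q module and 2 of 8 assembly factors. At week 12 against week 8, 16 passed as lower and 0 as higher (median -0.23), beside 24% and 11.2% of all probe sets (median -0.11). That count rests on 1 array in part: it was 8 without untreated week 12 replicate 4. With each array centred on its own median, 4 genes passed as lower and 3 as higher at week 12.

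Ndufb3, the distal arm gene that did not differ between glands at week 8, fell most. It was at 8.82, 8.63, 8.99 and 8.76 in lacrimal glands at week 16, against 9.57, 9.42, 9.51 and 9.55 at week 8. The ages did not overlap, and the difference was -0.71 (SE 0.09, adjusted p = 3.93e-07). Ndufaf1, the assembly factor, was at 6.61, 6.70, 6.61 and 6.66 at week 16, against 7.49, 7.37, 7.23 and 7.33 at week 8, again without overlap (-0.71, SE 0.12, adjusted p = 1.42e-05), and had already fallen by 0.73 at week 12. Ndufa9, a subunit at the joint between matrix and membrane arms, was at 9.94, 9.74, 9.95 and 9.74 at week 16, against 10.57, 10.41, 10.40 and 10.63 at week 8 (-0.66, adjusted p = 3.64e-06). Each of these 3 genes stood below its week 8 range on all 4 week 16 arrays. Ndufc1, a small proximal arm subunit, was at 9.75, 9.62, 9.76 and 9.53 at week 16, against 10.27, 10.27, 10.34 and 10.28 at week 8 (-0.62, adjusted p = 2.65e-06).

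Among the core subunits, Ndufs1 (-0.54, adjusted p = 0.00026), Ndufv1 (-0.42, adjusted p = 0.00211), Ndufv2 (-0.31, adjusted p = 0.000963) and Ndufs7 (-0.30, adjusted p = 0.011) fell by week 16, and Ndufs3 (-0.22, adjusted p = 0.0654) and Ndufs8 (-0.19, adjusted p = 0.0934) did not pass. Ndufs1 had its main step before week 12. Its lacrimal values were 8.60, 8.82, 9.01 and 8.71 at week 8, 8.49, 8.20 and 8.23 at week 12, 8.38, 8.19, 8.18 and 8.39 at week 14 and 8.38, 8.13, 8.28 and 8.19 at week 16, all later arrays lying below all week 8 arrays. Other genes with larger falls at week 16 were Ndufaf4 (-0.64), Ndufb2 (-0.57), Ndufab1 (-0.53), Ndufa10 (-0.53), Ndufv3 (-0.53) and Ndufb6 (-0.53). Ndufa5, which separated the glands most, did not pass for age in lacrimal glands (0.12, adjusted p = 0.127), nor did Ndufc2 (-0.04, adjusted p = 0.777). Ndufaf3, which joins an early Q module intermediate with Ndufaf4, was the one gene that rose. It was at 6.21, 6.25, 6.06 and 6.12 at week 16, against 5.89, 5.63, 5.77 and 5.71 at week 8 (0.41, SE 0.11, adjusted p = 0.0033). The groups did not overlap, but without the arrays on which Amy1 exceeded log2 8 the difference was 0.34 (adjusted p = 0.065), and 23 complex I genes passed as lower and 0 as higher.

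Lymphocyte markers moved with age in the same glands. The mean of the B-cell markers was 7.53 to 8.36 per array in untreated lacrimal glands at week 16, against 2.86 to 3.70 at week 8, and 5 of 5 B-cell, 6 of 6 T-cell and 6 of 6 macrophage and dendritic cell markers rose (medians 5.84, 3.39 and 2.87). Their part in the lower values of complex I genes was not tested. The lacrimal array with the highest B-cell marker mean, MOPC-21 week 16 replicate 3 at 9.04, also had the lowest complex I mean, 8.62. The week 8 arrays, lowest in B-cell markers among lacrimal arrays, had the highest complex I means, 9.08 to 9.11. Some arrays far apart in B-cell markers had like complex I means. LTBR-Ig week 16 replicate 3, with B-cell markers at 4.94, and untreated week 14 replicate 2, with 8.15, both had 8.84. That LTBR-Ig array also carried salivary markers, with Amy1 at 15.08 and a submandibular and sublingual marker mean of 11.19. Complex III genes fell in 10 of 10 cases (median -0.48), complex V genes in 13 of 15 (-0.38) and complex IV genes in 6 of 10, while 1 of 6 complex II genes fell (Sdhc, -0.73) and 1 rose (Sdhb, 0.39). ND5 of the mitochondrial genome fell by 0.31. Assembly genes without an Nduf name fell in 4 of 8 cases, among them Ecsit (-0.57) and Timmdc1 (-0.45). Of 11 glycolysis genes 2 rose and 1 fell.

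In untreated salivary glands some complex I genes fell with age and most did not pass. At week 16 against week 8, 17 of 41 passed as lower and 1 as higher (median -0.22), beside 19.2% and 14.6% of all probe sets (median -0.04). Without untreated week 8 replicate 2 the count of passing genes was 11 in place of 18. At week 12 against week 8, 11 passed as lower and 1 as higher (median -0.18), beside 23.1% and 13.2% of all probe sets, and with centred arrays 5 passed as lower and 3 as higher. By module, 3 of 9 N module, 2 of 5 Q module, 5 of 8 proximal arm and 5 of 10 distal arm genes and 1 of 8 assembly factors were lower at week 16. In these glands the B-cell marker mean stayed between 2.62 and 3.97 at both ages, near the low end of the scale. Complex III fell in 7 of 10 genes, complex IV in 4 of 10 and complex V in 9 of 15.

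Ndufb6, a distal arm subunit, had the largest fall in salivary glands. It was at 10.86, 10.55, 10.68 and 10.65 at week 16, against 11.34, 11.23, 11.02 and 11.40 at week 8, without overlap (-0.56, SE 0.10, adjusted p = 9.62e-05). Ndufc1 averaged 10.51 at week 16 and 11.00 at week 8 (-0.49, adjusted p = 0.000429). Ndufc2, its partner in the proximal arm, was at 11.58, 11.51, 11.48 and 11.54 at week 16, against 12.05, 12.03, 11.78 and 12.16 at week 8, also without overlap (-0.48, SE 0.08, adjusted p = 2.72e-05). Ndufb5 (-0.47), Ndufa5 (-0.37), Ndufb8 (-0.36), Ndufa4 (-0.34), Ndufv1 (-0.34) and Ndufs7 (-0.33) also passed, and Ndufaf4 did so narrowly (-0.42, adjusted p = 0.0468) after a fall of 0.80 at week 12. Ndufaf3 again rose. Its salivary values were 6.08, 5.65, 5.77 and 5.98 at week 8, 6.68, 6.27, 6.26 and 6.37 at week 12, 6.46, 6.67, 6.62 and 6.61 at week 14 and 6.33, 6.33, 6.66 and 6.58 at week 16. All later arrays lay above all week 8 arrays, and the week 16 difference was 0.60 (SE 0.14, adjusted p = 0.00131). In lacrimal glands Ndufaf3 did not pass at week 12 (-0.06, adjusted p = 0.726).

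**Figure D3:**
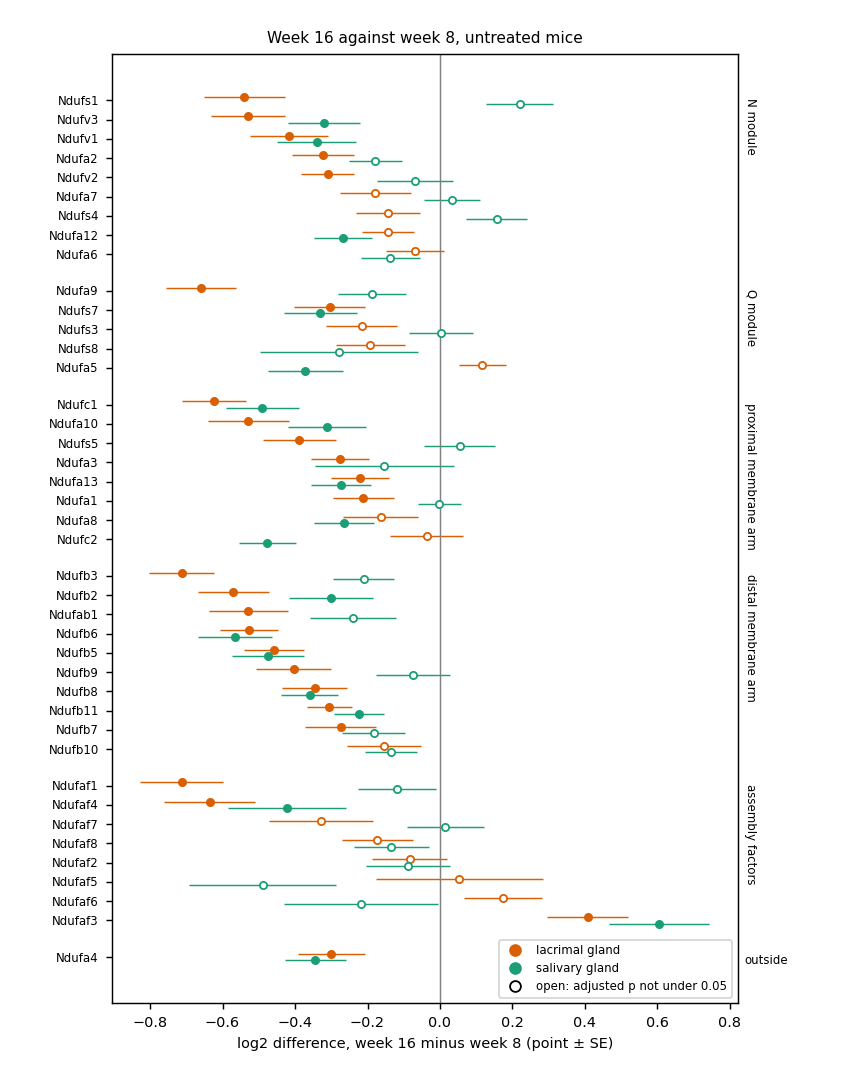
Log2 difference between week 16 and week 8 in untreated mice for each tested complex I gene, grouped by module, in lacrimal (orange) and salivary (green) glands, with its standard error. Filled points passed at adjusted p under 0.05 and open points did not. The difference runs along the horizontal axis: most points lie left of 0 in both glands, Ndufb3 and Ndufaf1 are farthest left in lacrimal glands at -0.71, and Ndufaf3 lies right of 0 in both.

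The change with age differed between the glands for 8 of 41 complex I genes by a test of the difference itself, 6 being more negative in lacrimal glands and 2 more positive. Over all probe sets tested 18.9% were more negative and 21.2% more positive, in each direction a larger share than among the 41 genes. Ndufs1 differed most: its change was -0.54 in lacrimal and 0.22 in salivary glands, a difference of -0.76 (SE 0.15, adjusted p = 3.83e-05), and the salivary change did not pass on its own (adjusted p = 0.0712). In salivary glands it averaged 9.14 ± 0.12 at week 16 and 8.92 ± 0.24 at week 8, with overlapping values. The changes of Ndufaf1 (difference -0.59, adjusted p = 0.00183), Ndufb3 (-0.50, adjusted p = 0.000818), Ndufa9 (-0.47, adjusted p = 0.00432) and Ndufs5 (-0.44, adjusted p = 0.00609) were also more negative in lacrimal glands. Ndufs5, an accessory subunit of the proximal arm, was near log2 4 there, at 3.86, 3.76, 3.85 and 3.90 at week 16 against 4.25, 4.04, 4.45 and 4.18 at week 8. Ndufs4 differed by -0.30 (adjusted p = 0.0413). In the other direction, Ndufa5 changed by 0.12 in lacrimal and -0.37 in salivary glands (difference 0.49, SE 0.12, adjusted p = 0.00116), and its second probe set by -0.19 and -0.58. Ndufc2 changed by -0.04 in lacrimal and -0.48 in salivary glands (difference 0.44, adjusted p = 0.00515). With the mean of all Ndufc2 probe sets this difference was 0.17 (adjusted p = 0.2).

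**Figure D4:**
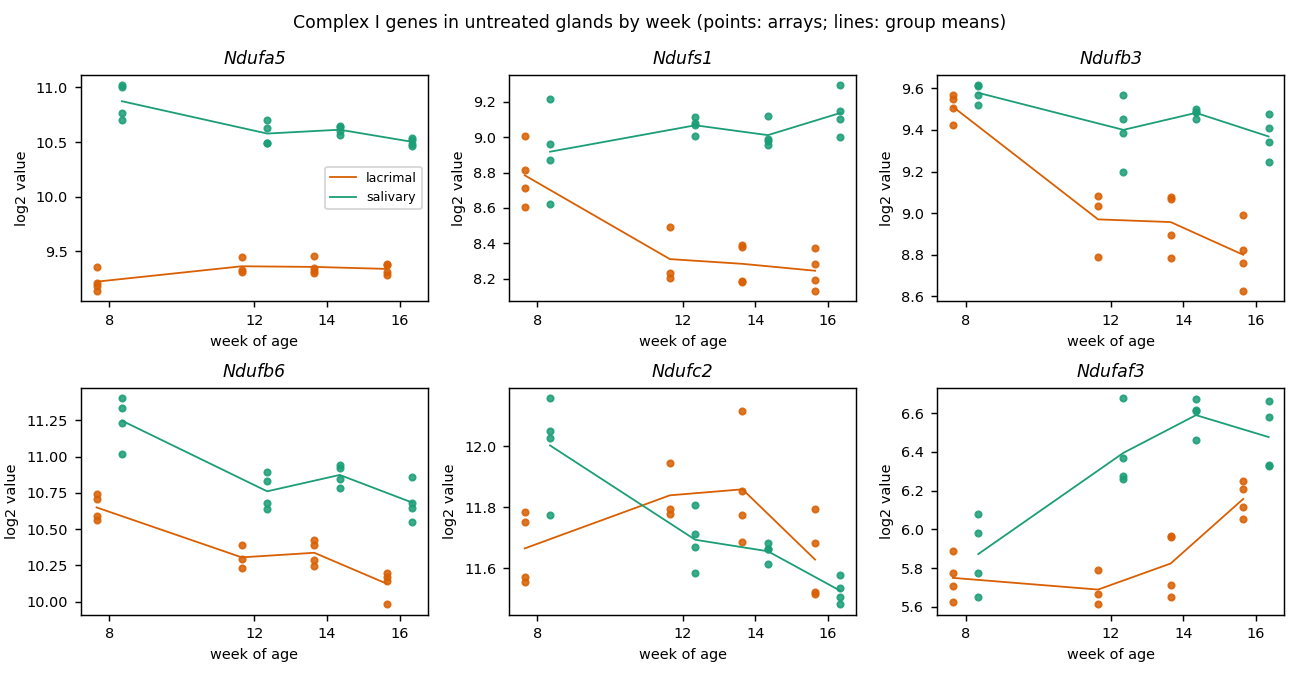
Log2 values of 6 complex I genes (Ndufa5, Ndufs1, Ndufb3, Ndufb6, Ndufc2 and Ndufaf3) on each untreated array at weeks 8, 12, 14 and 16, in lacrimal (orange) and salivary (green) glands, with lines through the group means. The 2 glands overlap for Ndufs1 and Ndufb3 at week 8 and not at week 16, Ndufb6 is lower at week 16 in both, and Ndufaf3 is higher at week 16 than at week 8 in both.

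LTBR-Ig was compared with MOPC-21 to ask whether blocking the receptor altered these genes. In lacrimal glands at week 16, 1 of 41 complex I genes passed as higher and 0 as lower (median 0.07), while 6.36% of all probe sets passed as higher and 15.9% as lower (median -0.05). The gene was Ndufb6, at 10.39, 10.11, 10.33 and 10.40 with LTBR-Ig, against 9.95, 10.17, 9.98 and 10.24 with MOPC-21. The groups overlapped, and the difference of 0.22 (SE 0.08, adjusted p = 0.0457) was lost under several other settings, among them leaving out the arrays on which Amy1 exceeded log2 8, which keeps 2 LTBR-Ig arrays. These 2 arrays still had submandibular and sublingual marker means of 9.62 and 7.90, against 4.31 to 6.20 with MOPC-21. At an unadjusted p under 0.05 stood 7 of the 41, beside 38.9% of all probe sets. Ndufc1 averaged 9.89 with LTBR-Ig and 9.66 with MOPC-21 without overlap (0.23, adjusted p = 0.0559), and Ndufa8, a proximal arm subunit, differed by 0.26 (adjusted p = 0.0706) and Ndufv3 of the N module by 0.24 (adjusted p = 0.0822). Core subunits lay within 0.16 of 0, Ndufs8 at -0.16, Ndufs1 at 0.07 and Ndufv1 at 0.10. Over the 41 genes the 95% intervals of the differences reached from -0.68 (Ndufaf5) to 0.47 (Ndufa8). The count rested on single arrays, being 9 without MOPC-21 replicate 2, 2 without LTBR-Ig replicate 1 or 2, and 0 without LTBR-Ig replicate 3 or 4 or MOPC-21 replicate 1 or 3.

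On the same arrays the infiltrate markers differed. With LTBR-Ig 5 of 5 B-cell markers (median -2.21), 5 of 6 T-cell markers (-1.45) and 4 of 6 macrophage and dendritic cell markers (-1.10) were lower than with MOPC-21. The 2 lacrimal acinar markers were higher (median 0.39), and 5 of 6 submandibular and sublingual markers were higher (median 4.54). The B-cell marker mean was 4.94 to 7.31 per array with LTBR-Ig and 7.22 to 9.04 with MOPC-21. The part of these cells in the complex I values was not tested. Among other respiratory genes, 2 of 10 complex III genes were higher, 2 of 10 complex IV genes lower and 1 of 15 complex V genes higher, while 4 of 11 glycolysis genes were lower and 1 higher.

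The remaining treatment comparisons gave 0 passing complex I genes each by limma. LTBR-Ig against untreated lacrimal glands at week 16 had 9.87% of all probe sets passing in either direction, and its 95% intervals reached from -0.74 to 0.41. At an unadjusted p under 0.05 stood 5 of the 41 genes, led by Ndufaf3 (-0.33, adjusted p = 0.0566), beside 29.8% of all probe sets. These arrays of LTBR-Ig mice also serve the comparison with MOPC-21. MOPC-21 against untreated lacrimal glands at week 16 had 0% of all probe sets passing and 0 of the 41 genes at an unadjusted p under 0.05, beside 2.05% of all, with intervals from -0.53 to 0.41. In lacrimal glands at week 12, LTBR-Ig against MOPC-21 had 0.0847% of all probe sets passing and 0 of the 41 genes at an unadjusted p under 0.05, beside 8.83% of all, with intervals from -0.77 to 0.30. In salivary glands LTBR-Ig against MOPC-21 had 0.0561% of all probe sets passing at week 16 (intervals -0.77 to 0.70) and 0.051% at week 12 (intervals -0.51 to 0.96). At an unadjusted p under 0.05 stood 2 of the 41 genes at week 16, beside 5.71% of all probe sets, and 6 at week 12, beside 12.3%. Ndufa1 had the smallest p at week 16 (0.17, adjusted p = 0.596) and Ndufs7 at week 12 (0.42, adjusted p = 0.154). The week 12 salivary group of 2 LTBR-Ig arrays was set against MOPC-21 arrays that include the array with the high Gapdh 3′ minus 5′ value. The effect of LTBR-Ig at week 16 did not differ between glands for any of the 41 genes past the threshold, beside 4.41% of all probe sets, with intervals from -0.78 to 0.77. At an unadjusted p under 0.05 stood 1 gene, Ndufa8 (0.36, adjusted p = 0.0968), beside 22.9% of all probe sets.

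**Figure D5:**
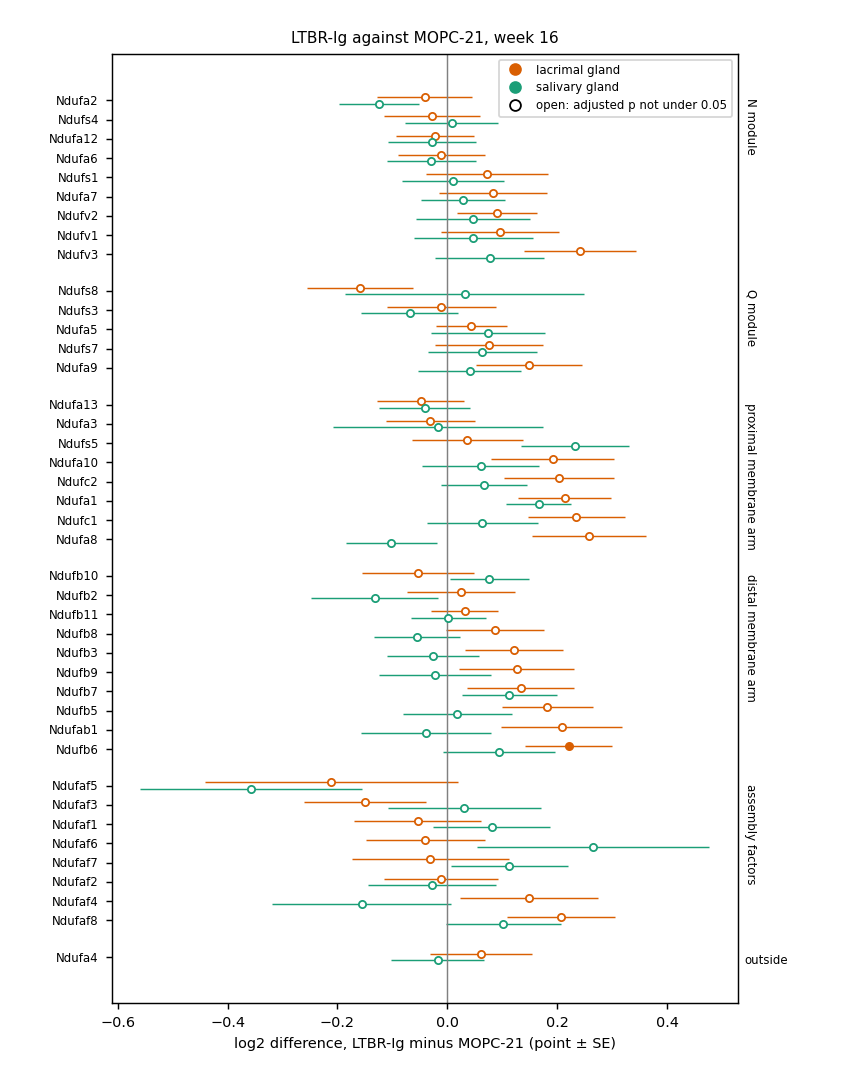
Log2 difference at week 16, LTBR-Ig minus MOPC-21, for each tested complex I gene, grouped by module, in lacrimal (orange) and salivary (green) glands, with its standard error. Filled points passed at adjusted p under 0.05 and open points did not. The difference runs along the horizontal axis, and Ndufb6 in lacrimal glands, at 0.22, is the only filled point.

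Where a complex I gene had further probe sets, most gave the same sign as the one used. Of the other tested probe sets of genes that passed, 31 of 35 had the same sign in the gland comparison at week 8, 31 of 33 at week 16, 18 of 20 for lacrimal week 16 against week 8 and 14 of 16 for salivary week 16 against week 8. At week 12 against week 8 it was 19 of 21 in lacrimal and 6 of 9 in salivary glands. In the gland comparison at week 8, 2 passed with the opposite sign, a probe set of Ndufc2 at 0.25 and one of Ndufb8 at 0.37, and for lacrimal week 16 against week 8 a probe set of Ndufb2 did, at 0.33. For Ndufb6 the other probe set gave -0.68 in the gland comparison and fell with age by 0.65 in lacrimal and by 0.29 in salivary glands.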

How the data were processed

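The authors extracted RNA from glands, labelled it with the NuGEN Ovation kit, hybridised it to Affymetrix mouse genome arrays and normalized all arrays together with GCRMA (version not given in the sources used here). The deposited values are on the log2 scale, and were used unchanged. Probe sets were named from the platform annotation, which can be dated: of 45101 probe sets 34958 had a single symbol, 932 several and 9211 were not listed. Of 88 single-symbol Nduf probe sets, 1 was kept for each of 44 genes, and 10 with several symbols were not used. The number of arrays limits the precision.

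Groups came from the labels. limma 3.58.1 in R 4.3.3 (lmFit, eBayes with trend) was fitted to 31 lacrimal arrays (20077 probe sets), to 30 salivary arrays (19617) and to all 61 (21626, for comparisons of glands and differences between effects), after a filter of log2 above 4 on at least 2 arrays of a group. P-values were adjusted by Benjamini-Hochberg over all probe sets tested, at a threshold of 0.05. Fits were tested on simulated data. Named were the core subunits, Ndufa4, Ndufa4l2, Ndufab1, Ndufaf1 and, in each comparison, up to 10 passing genes with the largest change in each direction, or, where none passed, those with the smallest p. Other genes in the text were chosen after their values were seen. The members and gene lists were chosen with earlier results of these data known. Promoters were searched with Python 3.11. Other filters, scalings, probe set choices, thresholds, a replicate block and leaving out arrays were tried.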

Additional observations from a re-analysis of the deposited data

Results flagged for a closer look

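The change from week 8 to week 16 differed between lacrimal and salivary glands for 8 of 41 genes, by the test of the difference itself, beside 18.9% of all probe sets with a more negative and 21.2% with a more positive change in lacrimal glands. Such differences were thus less frequent among these genes than among all probe sets. The lacrimal minus salivary difference was -0.76 for Ndufs1, -0.59 for Ndufaf1, -0.50 for Ndufb3, -0.47 for Ndufa9, -0.44 for Ndufs5 and -0.30 for Ndufs4, and it was 0.49 for Ndufa5 and 0.44 for Ndufc2. The call for Ndufs4 was lost in 12 alternatives.

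A single sample lay far from the other 3 of its group for Ndufb6 in 2 groups. In salivary glands with LTBR-Ig at week 16, replicate 1 was at 10.74 and the others at 10.83 to 10.85. In salivary glands with MOPC-21 at week 12, replicate 4 was at 10.88 and the others at 10.36 to 10.40. In all, 98 tests, each of 1 gene in 1 group, looked for such samples, and chance alone marks about 1 in 20 of them.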

How the results depend on the processing

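Requiring a difference of at least 2-fold, on the measured or on the moderated value, left 3 genes in the gland comparison at week 8 and 5 at week 16, and 0 in the 4 age comparisons, in the test of the age difference between glands and in LTBR-Ig against MOPC-21 in lacrimal glands at week 16. That last count, 1 as reported, was 0 without the intensity trend, with the replicate number as a block, on the compared arrays alone and without arrays high in Amy1, 2 with no filter or with a filter at log2 6, 3 after quantile normalization, and 6 with centred arrays. LTBR-Ig against untreated lacrimal glands at week 16, 0 as reported, gave 2 with no filter or centred arrays, and 1 with the replicate block, with the mean of all probe sets or on the compared arrays alone. For lacrimal glands at week 12 against week 8, 16 became 7 with centred arrays (3 higher, 4 lower) and 8 after quantile normalization (2 higher, 6 lower). For salivary glands at week 12 against week 8, centring gave 3 higher and 5 lower. The cause was not tested.

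Leaving out 1 array at a time gave 31 to 33 genes in the gland comparison at week 8 and 32 to 35 at week 16, and 24 to 28 for lacrimal glands at week 16 and 8 to 17 at week 12 against week 8. It gave 11 to 20 for salivary glands at week 16 and 9 to 18 at week 12, and 7 to 10 for the age difference between glands. Between treatments it gave 0 to 9 for LTBR-Ig against MOPC-21 in lacrimal glands at week 16 and 0 to 1 in salivary glands at week 12 (1 without MOPC-21 replicate 2 or 4). The treatment difference between glands gave 0 to 1, with 1 without lacrimal MOPC-21 week 16 replicate 2, and the other 4 treatment comparisons stayed at 0. For single genes 3379 of the values under alternatives stayed on their side of the threshold, 106 lost and 36 gained a call, and 0 changed sign with a call. Samples with the same replicate number did not deviate together throughout. Their correlations were -0.50 to 0.19 for LTBR-Ig and MOPC-21 lacrimal arrays at week 16, -0.26 to 0.50 at week 12, and 0.12 and 0.15 for the 2 salivary pairs at week 12, and no comparison with 3 or more pairs had all of them over 0.1. The replicate number was taken as a name only, although a set of markers followed it in some lacrimal groups. The mean of submandibular and sublingual markers fell with each higher replicate number in LTBR-Ig, MOPC-21 and untreated lacrimal glands at week 12. It also fell in this way in untreated lacrimal glands at week 14, but not in the lacrimal groups of weeks 8 and 16. The reason was not tested. The replicate block left the counts of all comparisons not named above as reported.

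Few arrays per group, single probe sets for many genes and whole-gland RNA limit these results.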
